A study of Mus musculus with 4 samples.

Results

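Aqp1, Car2, Kcnn4, Cftr and Slc4a4 are 5 genes of duct water and bicarbonate transport, and their rows were taken by symbol from a table of 24940 genes. They were measured by RNA sequencing of mouse pancreatic islets, the clusters of endocrine cells that release insulin and glucagon. The knockdown group held 2 libraries (replicates 3 and 4) of Tafazzin knock-down mice, and the control group 2 libraries (replicates 1 and 2) of non-transgenic mice. All mice were males of 3 to 4 months on a low-fat chow, and each library pooled about 300 islets from 2 to 3 mice. Tafazzin is a mitochondrial enzyme that remodels cardiolipin. The construct behind the knockdown and the cells that express it are not given in the sources used here, and since the controls carry no transgene, its own effect cannot be told apart from that of Tafazzin loss. The 5 genes were selected on their read levels in this same comparison, in which Aqp1, Car2 and Kcnn4 rank 10, 9 and 8 of all tested genes by log2 fold change. Their knockdown and control values are therefore a description and were not tested.

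Pancreatic ducts carry digestive enzymes to the gut in a fluid rich in bicarbonate. Duct cells take up bicarbonate at their base or make it from carbon dioxide with carbonic anhydrases, and release it with chloride at the surface that faces the duct. Potassium channels keep the cell negative inside, which drives the anions out, and water follows through aquaporins. The same channels also work elsewhere: AQP1 is abundant in capillary endothelium and red blood cells, carbonic anhydrase II in red blood cells, and the KCNN4 channel in red blood cells and lymphocytes.

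Values are given in units of 1 read in 10000000 of the library, apparently counted over the whole gene body, introns included. Low counts were mostly even, as 81.5% to 83.1% of the rows with 1 to 20 reads were, so a read pair was taken as the unit of counting. A pair was worth 0.247 to 0.291 units, and the libraries held 76680282 and 78630832 reads in the knockdown and 68823160 and 81073502 in the controls. Islet identity was plain, with Ins2 at 48195 and 51995 units in the knockdown and 58452 and 46108 units in the controls. Over 13531 genes with a mean of at least 1 unit, limma called 337 higher and 6 lower at an adjusted p under 0.05. Leaving out knockdown replicate 3 reduced this to 28 higher and 4 lower. With libraries scaled by their median ratio, limma called 151 higher (1.12%) and 21 lower (0.155%), and 87.8% of the calls were higher, against 98.3% as deposited. The typical tested gene stood 0.17 higher in the knockdown on the log2 scale (0.00 with that scaling). Log2 fold changes below are relative to this median, while p-values test the unshifted change. The SE given with them comes from the trend of spread over all genes, not from the libraries of the single gene. Taz, the gene of Tafazzin, had 13.8 and 12.7 units in the knockdown and 23.1 and 15.4 units in the controls, a log2 fold change of -0.65 ± 0.25 SE that limma did not call (adjusted p = 0.529).

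Of the 5 genes, Aqp1, Car2 and Kcnn4 had several times more reads in the knockdown libraries, Cftr had few reads in any library, and Slc4a4 overlapped between the groups. All 5 lie on the plus strand in mm10, and no span overlaps another gene of the table. In bulk RNA, fewer cells of a type and less RNA per cell cannot be told apart. Both knockdown libraries lay above both controls for 4 of the 5 genes. The same held for 30.6% of all rows with a read and for 34.9% of the tested genes. Since the choice of these genes used the comparison, nothing is read from that count.

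**Figure D1:**
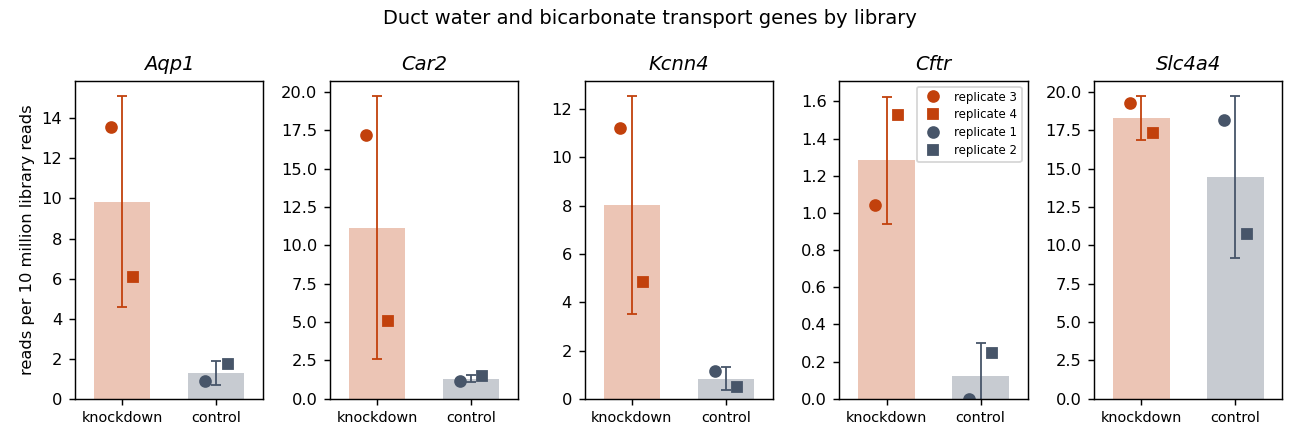
Reads per 10000000 library reads (linear axis from 0, its own scale for each gene) for Aqp1, Car2, Kcnn4, Cftr and Slc4a4 in knockdown and control islets. Points are single libraries, bars the mean and whiskers the SD of 2 libraries. The knockdown points of the first 4 genes lie above both controls, with replicate 3 the highest for Aqp1, Car2 and Kcnn4, and those of Slc4a4 overlap the controls.

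Aqp1 encodes aquaporin 1, a water channel (NM_007472; chromosome 6, 55336299 to 55348555). It had 13.6 and 6.10 units in knockdown replicates 3 and 4, against 0.872 and 1.73 units in control replicates 1 and 2. Knockdown replicate 3 was the highest, and even the lower knockdown library held 3.53 times the higher control. The mean was 9.83 ± 5.27 units in the knockdown and 1.30 ± 0.605 units in the controls (SD, n = 2 each), a log2 fold change of 2.00 ± 0.34 SE on the log2(value + 1) scale. These values rest on 52 and 24 read pairs in the knockdown and 3 and 7 pairs in the controls. The pooled ratio of knockdown to control was 7.34, with an exact 95% interval from 3.78 to 15.9 that covers counting error only.

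Car2 encodes carbonic anhydrase II, the cytosolic enzyme that turns carbon dioxide and water into bicarbonate and protons (NM_001357334; chromosome 3, 14886269 to 14900770). It had 17.2 and 5.09 units in the knockdown libraries, against 1.16 and 1.48 units in the controls. The knockdown libraries differed from each other 3.38-fold (exact 95% interval 2.03 to 5.89, counting error only). This is a wider gap than Slc4a4 showed (interval 0.792 to 1.57). The intervals of Aqp1 (1.35 to 3.77) and Kcnn4 (1.32 to 4.22) overlap that of Car2, so a wider gap than theirs is not shown. The mean was 11.2 ± 8.58 units in the knockdown and 1.32 ± 0.225 units in the controls (SD, n = 2 each), a log2 fold change of 2.02 ± 0.33 SE. On the log2(value + 1) scale the pooled SD within the groups was 0.80 for Car2, 0.58 for Aqp1, 0.60 for Kcnn4 and 0.36 for Slc4a4. The SE does not use these gene-specific spreads. Counting gave 66 and 20 pairs in the knockdown and 4 and 6 pairs in the controls, and a pooled ratio of 8.30 (exact 95% interval 4.30 to 17.9, counting error only).

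Kcnn4 encodes the intermediate-conductance calcium-activated potassium channel KCa3.1, which opens when cytosolic calcium rises (NM_008433; chromosome 7, 24370263 to 24385212). It had 11.2 and 4.83 units in the knockdown libraries, against 1.16 and 0.493 units in the controls. Replicate 3 was again the higher knockdown library, while the order of the controls was the reverse of that for Aqp1 and Car2. The ratio of control replicate 1 to 2 had exact 95% intervals of 0.338 to 26.0 for Kcnn4, 0.0842 to 2.21 for Aqp1 and 0.163 to 3.31 for Car2. Each includes 1, so this order is not resolved beyond counting error. The mean was 8.02 ± 4.51 units in the knockdown and 0.828 ± 0.473 units in the controls (SD, n = 2 each), a log2 fold change of 2.07 ± 0.37 SE. The pooled ratio was 9.97 on 62 pairs in the knockdown and 6 in the controls (exact 95% interval 4.33 to 28.2, counting error only).

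Cftr encodes the apical chloride and bicarbonate channel that is defective in cystic fibrosis (NM_021050; chromosome 6, 18170687 to 18322769). It had 1.04 and 1.53 units in the knockdown libraries, against 0 and 0.247 units in the controls. That is 4 and 6 read pairs in the knockdown, and 0 and 1 in the controls. A count of 0 in control replicate 1 allows up to 0.872 units. The ratio of 9.65 has an exact 95% interval from 1.37 to 419 and so carries almost no information on size. With a mean of 0.704 units Cftr stayed below the filter of 1 unit, and it received no fold change from the fit. It is the gene of the 5 in which knockdown replicate 3 was not the highest library.

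Slc4a4 encodes NBCe1, the basolateral sodium-bicarbonate cotransporter (NM_001197147; chromosome 5, 88887260 to 89239656). It had 19.3 and 17.3 units in the knockdown libraries, against 18.2 and 10.7 units in the controls. Control replicate 1 lay between the knockdown libraries, and control replicate 2 below all others. The mean was 18.3 ± 1.42 units in the knockdown and 14.4 ± 5.25 units in the controls (SD, n = 2 each), a log2 fold change of 0.20 ± 0.25 SE. It had the highest level of the 5 in units, but its span is 352396 bases, and its reads may come from introns.

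Per kilobase of gene span, the order of the levels differed from that in units. In the knockdown Aqp1 stood at 0.802 ± 0.430 and Car2 at 0.769 ± 0.591 units per kilobase, followed by Kcnn4 at 0.537 ± 0.302 (SD, n = 2 each). Those 3 neighbours did not differ beyond their spread. Slc4a4 came next with 0.0519 ± 0.00402 and Cftr last with 0.00845 ± 0.00225 units per kilobase. In the controls Aqp1 stood at 0.106 ± 0.0493, Car2 at 0.0911 ± 0.0155, Kcnn4 at 0.0554 ± 0.0316, Slc4a4 at 0.0410 ± 0.0149 and Cftr at 0.000812 ± 0.00115 units per kilobase. Among the control libraries the values of Aqp1 and Car2 overlapped, as did those of Kcnn4 and Slc4a4, while those of Car2 and Kcnn4 did not. Since introns count in the span, long genes are placed too low if most of their reads are exonic.

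The sequences before the gene starts are shown because 2 of the genes with several-fold higher values and the gene whose groups overlapped differ visibly in CG content. They are the 250 bases upstream of the deposited start, from RefSeq's GRCm38.p6 table, read 5′ to 3′ on the plus strand, with CG dinucleotides in capitals. They cover chr6:55336049-55336298 for Aqp1, chr7:24370013-24370262 for Kcnn4 and chr5:88887010-88887259 for Slc4a4. Of the 5 genes, 4 had an entry at their start, and Car2 is named only. The window of Cftr is described below and not printed.
Aqp1: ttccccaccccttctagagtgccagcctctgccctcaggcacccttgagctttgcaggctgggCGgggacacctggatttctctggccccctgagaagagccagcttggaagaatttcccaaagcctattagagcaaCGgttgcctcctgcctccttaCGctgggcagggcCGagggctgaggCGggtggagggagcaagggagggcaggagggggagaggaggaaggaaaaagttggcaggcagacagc
Kcnn4: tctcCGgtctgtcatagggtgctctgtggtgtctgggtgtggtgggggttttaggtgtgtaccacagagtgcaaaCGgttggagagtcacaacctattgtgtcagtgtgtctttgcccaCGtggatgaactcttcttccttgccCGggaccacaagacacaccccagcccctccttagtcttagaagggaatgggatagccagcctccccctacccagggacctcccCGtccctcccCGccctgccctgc
Slc4a4: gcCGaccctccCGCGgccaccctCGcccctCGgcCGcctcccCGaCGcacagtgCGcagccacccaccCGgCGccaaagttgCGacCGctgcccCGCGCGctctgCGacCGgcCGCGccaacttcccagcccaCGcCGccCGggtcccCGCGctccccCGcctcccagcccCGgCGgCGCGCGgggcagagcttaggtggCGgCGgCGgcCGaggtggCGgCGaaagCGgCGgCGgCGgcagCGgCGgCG

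The Aqp1 window held 5 CG dinucleotides and the Kcnn4 window 6, against a median of 6 over the 27025 promoters of the table (lower quartile 2, upper quartile 16). Slc4a4 held 44 and Cftr 30, both above the upper quartile. Cftr, on few read pairs, also lay above both controls in both knockdown libraries. The 4 genes were chosen on this same comparison, so no relation between CG content and knockdown values is read from them. GC content was 62.0% for Aqp1 and 58.8% for Kcnn4, and 82.0% for Slc4a4 and 76.4% for Cftr, with a median of 52.0% over all promoters. With 4 genes this is a description. Searched on both strands were the AP-1 motif TGANTCA, the TEAD motif GGAATG, the core HNF1 site GTTAAT, the TATA box TATAAA and the SOX motif ACAATG. They occur in 6.87%, 12.6%, 6.52%, 13.0% and 11.0% of the 250-base windows. Among the 4 windows the one match was GGAATG in Kcnn4, from 63 to 58 bases before the start. A match is a description and not a binding site, and no match says only that these letters are not in the window.

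Aqp1, Car2 and Kcnn4 were all highest in knockdown replicate 3. Summed over the 3 genes, the libraries held 42.0 and 16.0 units in the knockdown and 3.20 and 3.70 units in the controls. The ratio of knockdown replicate 3 to replicate 4 was 2.22 for Aqp1, 3.38 for Car2 and 2.32 for Kcnn4, each with an exact 95% counting interval above 1. For all tested genes the median of this ratio was 1.03, and for the 337 genes called higher it was 1.53, with 56 of them above 2. Slc4a4 had a ratio of 1.12 and Cftr one of 0.684, with intervals that include 1.

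Leaving out knockdown replicate 3 gave log2 fold changes of 1.50 for Aqp1, 1.24 for Car2 and 1.54 for Kcnn4. Without knockdown replicate 4 they were 2.51, 2.79 and 2.58 in the same order. The values of Aqp1 and Car2 were 1.60 and 1.78 without control replicate 1 and 2.41 and 2.25 without control replicate 2. Kcnn4 moved the other way, to 2.20 without control replicate 1 and 1.93 without control replicate 2. The controls of these 3 genes did not differ beyond counting error. In each of these settings all 3 genes stayed above the median of all genes. As the genes were chosen on this comparison, that is no test of it. Slc4a4 lay between -0.02 without control replicate 2 and 0.41 without control replicate 1.

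**Figure D2:**
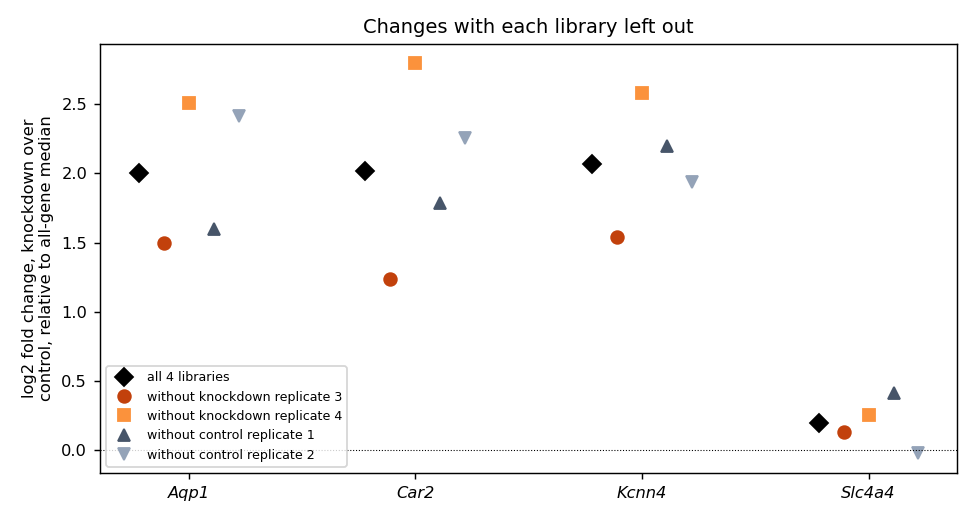
Log2 fold change of knockdown over control, relative to the median of all tested genes, for Aqp1, Car2, Kcnn4 and Slc4a4 with all 4 libraries and with each library left out in turn. Leaving out knockdown replicate 3 gives the lowest value for Aqp1, Car2 and Kcnn4 (1.50, 1.24 and 1.54), and Slc4a4 lies between -0.02 and 0.41.

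The genes most alike in profile were named by the distance between log2(value + 1) profiles over the 4 libraries, each centred on its mean. Nearest to Aqp1 were the ligand gene Wnt7a (distance 0.13), the apelin receptor gene Aplnr (0.15) and Mdfi, an inhibitor of myogenic factors (0.27). Wnt7a had 8.35 and 3.31 units in the knockdown and 0.291 and 0.740 units in the controls. Aplnr had 19.8 and 9.92 units in the knockdown and 2.03 and 3.45 units in the controls. Nearest to Car2 were Ankrd1, an ankyrin-repeat protein of muscle and stressed cells (0.33), Wnt7a (0.38) and Aqp1 itself (0.46). Nearest to Kcnn4 were Gm16548 (0.11), whose row overlaps Selp and F5, then Myof, a membrane-repair protein (0.39), and Pdpn, which encodes podoplanin (0.40). The distance between Aqp1 and Car2 was 0.46, with 14 other genes nearer to Aqp1, and that between Aqp1 and Kcnn4 was 0.76, with 62 nearer. Slc4a4 lay 1.98 to 2.18 from these 3 genes, and its own nearest genes were Celf4, Nrip1 and Pde6d at 0.03 to 0.04. With 4 libraries such distances only describe the profiles.

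Beyond the 5 genes, 121 further genes of the pathway were listed by role, and 79 of them passed the filter. Limma called 3 of the 79 higher, which is 3.80%, against 2.49% of all tested genes, and 0 lower, against 0.0443%. The 3 genes were Ano1, Fxyd3 and Ezr. At an unadjusted p under 0.05, 12 of the 79 were higher and 1 was lower, against 1337 higher and 63 lower of all 13531 tested genes. By edgeR on recovered reads 2 were called higher and 0 lower, against 1.29% and 0.148% of all genes. On read pairs edgeR also called 2 higher, against 1.18% higher and 0.133% lower of all genes, and DESeq2 called 0 in either direction (1 higher and 2 lower at an unadjusted p under 0.05), against 0.613% higher and 0.0813% lower. The 79 genes had a median of 0.02 in log2 fold change, with 43 of 79 above the median of all genes. Without knockdown replicate 3 the count was 0 (3 higher and 2 lower at an unadjusted p under 0.05), against 0.207% of all genes, and without control replicate 1 it was 9, or 11.4%, against 9.36% of all genes.

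**Figure D3:**
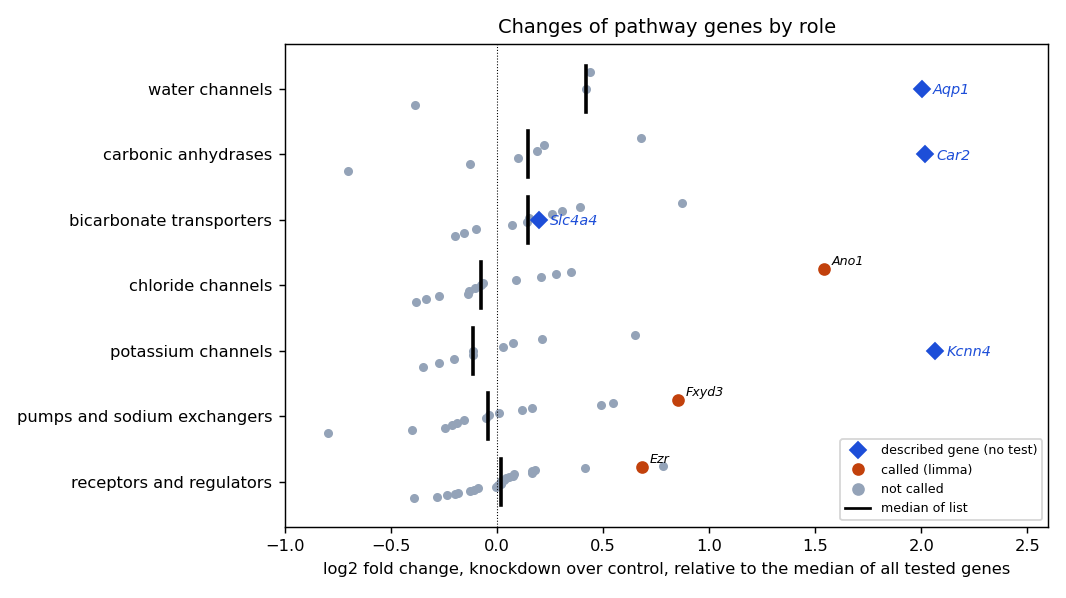
Log2 fold change of knockdown over control, relative to the median of all tested genes, for the tested pathway genes in 7 role lists (1 point per gene, black bar the median of the list), with Aqp1, Car2, Slc4a4 and Kcnn4 as diamonds in the rows of their families. Aqp1, Car2 and Kcnn4 lie at 2.00 to 2.07, to the right of every other gene drawn. Their place follows from their choice on this comparison. Of the others Ano1 is the farthest to the right at 1.54.

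Among the channels that let chloride out, Ano1 rose. It encodes the calcium-activated chloride channel TMEM16A and had 29.0 and 17.6 units in the knockdown, against 3.49 and 10.6 units in the controls. Its log2 fold change was 1.54 ± 0.26 SE (limma adjusted p = 3.37e-08). The value was 0.72 without control replicate 1 and 2.36 without control replicate 2. Ano1 was not called after quantile normalization, with no filter, by DESeq2 or without knockdown replicate 3 (adjusted p = 0.0933, 0.203, 1.0 and 0.0609). No other chloride channel among the 13 tested was called by limma. The share called higher was 7.69%, against 2.49% of all tested genes. The 2 most abundant overlapped between the groups: Clcn3, a chloride-proton exchanger of intracellular vesicles, had 84.5 and 86.7 units in the knockdown and 98.8 and 86.6 units in the controls. Ano6, a calcium-activated lipid scramblase, had 74.6 and 70.5 units in the knockdown and 81.9 and 56.5 units in the controls; it overlaps LOC102634389.

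In the other role lists the relatives of the 5 genes did not pass the test. Of 3 tested aquaporins 0 were called, with Aqp4 at 21.4 and 18.8 units in the knockdown and 14.5 and 11.3 units in the controls (0.44 ± 0.25 SE, limma adjusted p = 0.277). Aqp11 had 9.78 and 9.03 units in the knockdown and 15.1 and 8.14 units in the controls. Of 6 tested carbonic anhydrases 0 were called. Car10, which lacks enzyme activity, had 45.4 and 54.9 units in the knockdown and 59.3 and 39.8 units in the controls, and Car15, a membrane-anchored form, 47.6 and 48.1 units in the knockdown and 38.7 and 40.6 units in the controls. The groups overlapped for Aqp11 and Car10 but not for Aqp4 and Car15. By edgeR the counts were also 0 in both lists, and 1 gene in each had an unadjusted limma p under 0.05.

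Bicarbonate and anion transporters likewise had 0 of 10 tested members called by limma and 0 by edgeR, with 1 at an unadjusted p under 0.05. Slc4a7, a sodium-bicarbonate cotransporter, had 160 and 174 units in the knockdown and 191 and 133 units in the controls. The anion exchanger gene Slc4a2 had 34.0 and 40.3 units in the knockdown and 34.7 and 28.1 units in the controls. In both genes the groups overlapped. Of 9 tested potassium channels 0 were called by limma or edgeR and 1 had an unadjusted p under 0.05. Kcnma1, the large-conductance calcium-activated channel, had 102 and 122 units in the knockdown and 133 and 86.7 units in the controls. Kcnq1, an epithelial channel gene that overlaps Kcnq1ot1, had 36.6 and 23.5 units in the knockdown and 26.9 and 18.6 units in the controls. Kcnn1, Kcnn2 and Kcnn3, the small-conductance relatives of Kcnn4, had log2 fold changes of -0.27, 0.03 and -0.21 with overlapping groups.

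Among ion pumps and sodium exchangers 1 of 14 was called higher, or 7.14%, against 2.49% of all tested genes. Fxyd3, a regulator of the sodium pump, had 12.1 and 7.38 units in the knockdown, against 2.33 and 7.03 units in the controls (0.86 ± 0.29 SE, limma adjusted p = 0.0233). Its row overlaps Lgi4. Its call was lost by edgeR (adjusted p = 0.508) and with median-ratio scaling (limma adjusted p = 0.370), and also when control replicate 1 (0.435) or knockdown replicate 3 (1.0) was left out; without control replicate 1 its log2 fold change was 0.08. Atp1b1, a sodium pump subunit gene that overlaps Nme7, had 147 and 179 units in the knockdown and 193 and 141 units in the controls.

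Among receptors and regulators of secretion 1 of 24 was called higher, or 4.17%, against 2.49% of all tested genes. Ezr encodes ezrin, which ties apical membrane proteins to the actin cytoskeleton, and had 44.5 and 36.1 units in the knockdown, against 25.0 and 19.0 units in the controls (0.68 ± 0.25 SE, limma adjusted p = 0.0302). It was called by edgeR (adjusted p = 0.0165) but lost its call in 6 of 14 alternatives. Among them were DESeq2 (adjusted p = 0.180) and limma after quantile normalization (0.0933), with no filter (0.265) and without the trend (0.0689). The log2 fold change of Ezr was 0.55 without knockdown replicate 3 and 0.81 without knockdown replicate 4. Prkar1a, a regulatory subunit of protein kinase A, had 387 and 405 units in the knockdown and 437 and 332 units in the controls. Wnk1, a kinase of ion transport, had 253 and 246 units in the knockdown and 275 and 172 units in the controls. The receptor for secretin, the hormone that drives duct secretion, was named after its values were seen: Sctr had 4 reads in knockdown replicate 3 and 0 in the other libraries.

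Many pathway genes were not detectable at this depth. Of the 121 genes, 33 had fewer than 10 reads over all 4 libraries, and 13 of those had 0. Among 10 aquaporins that was true of 6 below 10 reads, and among 20 bicarbonate and anion transporters of 8.

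Markers of the cells that could carry these transcripts moved with the comparison as follows. The marker lists were chosen with earlier results of these data known, so the shares called are a description. Of 30 duct markers, none of them a gene described so far, 26 were tested, and 6 rose and 0 fell by limma, or 23.1% higher against 2.49% of all genes, and the median of the list was 0.34. Sox9, a transcription factor of duct cells, had 15.4 and 6.61 units in the knockdown, against 1.74 and 4.19 units in the controls (1.40 ± 0.30 SE, limma adjusted p = 3.75e-05). The matrix protein osteopontin, from Spp1, had 720 and 373 units in the knockdown, against 252 and 251 units in the controls. Onecut2 (1.73 ± 0.29 SE, limma adjusted p = 2.95e-08), Anxa3 (1.37 ± 0.25) and Lgals3 (1.49 ± 0.26) rose too, as did Krt19, a duct keratin whose groups overlapped. Krt19 had 48.1 and 21.9 units in the knockdown, against 11.8 and 22.2 units in the controls. Among the most abundant members, Clu and Cdh1 were not called, while Spp1 was called higher. Summed over the 30 genes, the libraries held 4399 and 3091 units in the knockdown and 2415 and 3091 units in the controls, so the groups met. Clu, the most abundant member, weighs most in this sum, with 1479 and 943 units in the knockdown and 626 and 1333 units in the controls. Gene by gene, 16 of the 26 lay above both controls in both knockdown libraries, 0 lay below, and 10 overlapped. Of all tested genes 34.9% lay above both controls. Limma called 1 duct marker higher without knockdown replicate 3, which was Onecut2, or 3.85% of the 26, against 0.207% of all genes. It called 10, or 38.5%, both without control replicate 1, against 9.36% of all genes, and without control replicate 2, against 2.67%. The log2 fold change of Sox9 was 0.80 without control replicate 1 and 0.85 without knockdown replicate 3. Sox9 lost its call in 6 of 14 alternatives. Among them were limma with median-ratio scaling (adjusted p = 0.0568), after quantile normalization (0.174) and with no filter (0.262). Its call was also lost by DESeq2 (adjusted p = 0.229) and by edgeR on read pairs (0.0547). Krt19 lost its call in 8 of 14 alternatives, edgeR (0.221), DESeq2 (1.0) and median-ratio scaling (0.275) among them, and its log2 fold change was 0.23 without control replicate 1 and 0.25 without knockdown replicate 3. Spp1 lost its call in 4 of 14 alternatives, DESeq2 (adjusted p = 0.917) and limma with no filter (0.217) among them. Its log2 fold change was 0.41 without knockdown replicate 3. Anxa3 lost its call in 4 of 14 alternatives. Among them were DESeq2 (adjusted p = 0.866) and limma after quantile normalization (0.0655) and with no filter (0.173). Its log2 fold change was 0.89 without control replicate 1 and 0.87 without knockdown replicate 3. Lgals3 lost its call in 2 of 14 alternatives, limma with no filter (adjusted p = 0.0804) among them. Its log2 fold change was 1.20 without knockdown replicate 3.

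Endothelial markers, from cells known to express Aqp1, were called higher in 6 of 16 tested genes and lower in 0, with a median of 0.59. The share called higher was 37.5%, against 2.49% of all genes. Their sum was 444 and 342 units in the knockdown, against 232 and 193 units in the controls. Pecam1, an endothelial adhesion molecule, had 36.4 and 24.7 units in the knockdown and 15.4 and 17.8 units in the controls, and Plvap, of fenestrated capillaries, 54.6 and 41.2 units in the knockdown and 20.3 and 18.7 units in the controls. Limma called both higher, as it did Eng, which overlaps Fpgs; Cdh5, the endothelial cadherin, was not called. Without knockdown replicate 3, 0 of the 16 were called.

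Red blood cell markers had 5 tested rows, but Hba-a1 and Hba-a2 share their reads, as do Hbb-bs and Hbb-b1, which leaves 3 distinct rows. Limma and edgeR called 0 of these, and 1 had an unadjusted limma p under 0.05. With shared rows counted once, the sum was 14.3 and 5.09 units in the knockdown, against 3.20 and 4.44 units in the controls. Of the 11 genes listed, 5 had 0 reads in all libraries, among them Slc4a1 and Epb42.

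Immune markers had 2 of 12 tested genes higher, Lyz2 and Cd14, and 0 lower, or 16.7% higher against 2.49% of all genes. Only 1 of the 12 was called higher by edgeR, by edgeR on read pairs, by DESeq2 and by limma with median-ratio scaling. The list had a median of -0.02 and a sum of 59.5 and 54.6 units in the knockdown, against 44.2 and 43.3 units in the controls. Ptprc, the common leukocyte antigen, had 2.09 and 1.02 units in the knockdown and 2.03 and 0.987 units in the controls. Stellate and fibroblast markers rose in 7 of 13 tested genes and fell in 0 (median 0.98), or 53.8% higher against 2.49% of all genes. Their sum was 358 and 282 units in the knockdown, against 124 and 126 units in the controls. Col1a1, a collagen gene, had 66.5 and 48.1 units in the knockdown and 18.6 and 17.5 units in the controls. Without knockdown replicate 3, 2 of the 13 were called.

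Acinar markers had 0 of 15 called by limma or edgeR, with 0 at an unadjusted p under 0.05, and a median of -0.41. Their sum of 5548 and 2595 units in the knockdown and 3172 and 6369 units in the controls overlapped. In Cpa1, a pancreatic carboxypeptidase gene, control replicate 2 was the highest library, with 391.6 and 205.4 units in the knockdown and 227 and 455 units in the controls. Beta cell markers had 0 of 11 called by limma, with 1 at an unadjusted p under 0.05 and a median of -0.28. Mafa, a beta cell transcription factor, and Trpm5, a cation channel, named after their values were seen, were called lower by edgeR (adjusted p = 0.0439 and 0.00561), by DESeq2 (0.0318 and 0.0496) and by limma with median-ratio scaling (0.0198 and 0.0119). By edgeR on read pairs Trpm5 was called lower (adjusted p = 0.00808), but Mafa was not (0.0523). The groups overlapped for Ins1 and Ins2. Markers of alpha, delta and PP cells had 0 of 8 called by either tool, with 1 at an unadjusted p under 0.05 and a median of 0.01. The sums of duct, endothelial, stellate, immune and red blood cell markers, and also of alpha, delta and PP cell markers (9043 and 8519 units in the knockdown, against 7549 and 8011 units in the controls), were all highest in knockdown replicate 3, the library in which Aqp1, Car2 and Kcnn4 were highest. Their part in the values of these 3 genes was not tested.

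**Figure D4:**
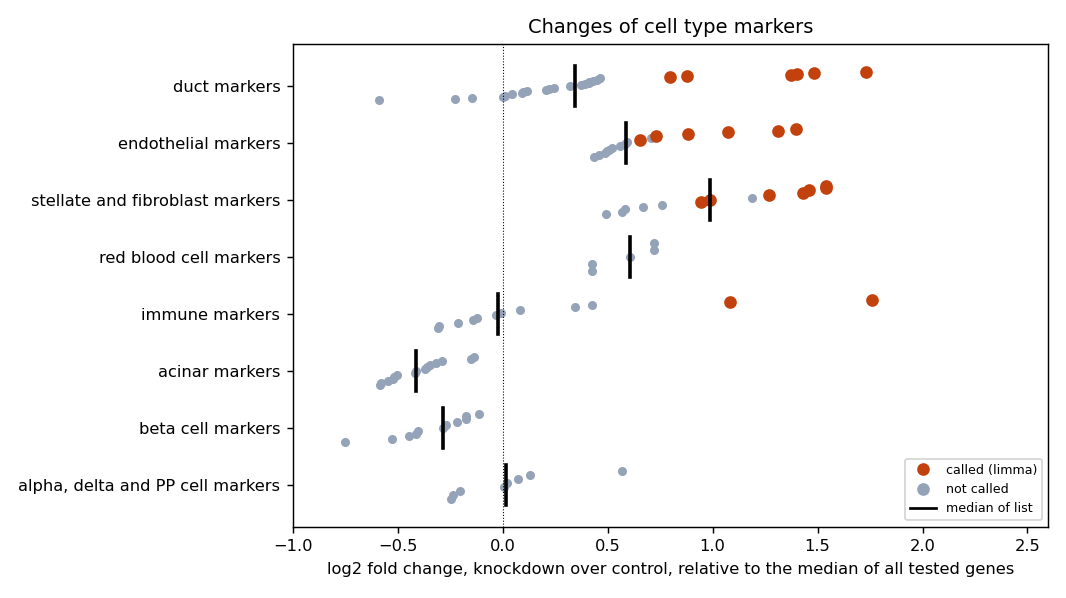
Log2 fold change of knockdown over control, relative to the median of all tested genes, for markers of 8 cell type lists (1 point per tested gene, orange where limma called it, black bar the median of the list). Duct, endothelial and stellate markers have medians of 0.34, 0.59 and 0.98, and acinar and beta cell markers of -0.41 and -0.28; the 5 red blood cell points are 3 distinct rows.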

How the data were processed

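Total RNA of 4 islet pools was depleted of ribosomal RNA and sequenced from a directional, randomly primed library, per the labels' protocols. Per the submitters' processing notes, STAR 2.5.1b, HOMER 4.9 and edgeR were used with the mm10 build; their roles are not stated. The deposited values are a signal, reads per 10000000 reads of the library total without scaling by length, although the authors' file name announces FPKM. Multiplied back by the library total, 100% of them gave whole reads (within 0.01 reads), which were used as counts in the alternatives. Gene spans are those of the deposited table, and 13 rows above 25000 units other than the insulin genes left 4320910 to 4962798 reads per library for all other genes. Values were apparently counted without strand.

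Limma 3.58.1 in R 4.3.3 was fitted to log2(value + 1) with a mean-variance trend, two-sided, over 13531 genes that averaged 1 unit or more and were 200 nt or longer, with Benjamini-Hochberg adjustment at 0.05. The fit took the spread of each gene from the trend over all genes, so a gene can be called although its groups overlap. With 2 libraries against 2, an exact permutation test of a single value cannot go below p = 0.333, and none was run. The libraries are separate pools. In the main fit the p-values rest on the spread between pools that the trend gives for genes of that level, not on the gene's own spread. Alternatives were edgeR 4.0.16 and DESeq2 1.42.0 on recovered reads, other scalings, pseudocounts and filters, and each library left out. Counts of read pairs are the reads halved and rounded up. On counts simulated for 13531 genes, with 200 well-expressed genes changed 4-fold up or down, limma recovered 200 of them with 12 false calls, and edgeR 199 with 12. The simulation gave all genes the same dispersion and set no shift between libraries. Its false calls therefore cannot be carried over to these data, in which the knockdown replicates differed.

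The 5 genes and all lists were chosen with earlier results of these data known. Named were the 5 genes, Taz, every called pathway gene and duct marker, the most abundant tested genes of each role list and of the duct markers and defining or called genes of the other lists. Some genes that this rule names are not reported here. Motifs were searched in the 250 bases before each start.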

Additional observations from a re-analysis of the deposited data

How the results depend on the processing

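Log2 fold changes of Aqp1, Car2 and Kcnn4 kept their sign in every alternative run, and Kcnn4 had none where a mean of at least 5 units was required. The kept sign is no test, as these genes were chosen on this comparison. Their lower knockdown library already held 3.53, 3.44 and 4.16 times the higher control. With a pseudocount of 0.1 the log2 fold changes were 2.61 for Aqp1 and 2.93 for Kcnn4. On recovered reads they were 2.67, 2.85 and 3.11 by edgeR and 2.69, 2.87 and 3.14 by DESeq2. On read pairs, a setting chosen after seeing the data, edgeR gave 2.66, 2.84 and 3.09. Leaving out single libraries gave 1.50 to 2.51 for Aqp1, 1.24 to 2.79 for Car2, 1.54 to 2.58 for Kcnn4 and -0.02 to 0.41 for Slc4a4. Cftr had no fold change under the filter.

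Genes called higher numbered 151 after median-ratio scaling, 86 after quantile normalization, 528 without the trend, 174 by edgeR, 160 by edgeR on pairs and 83 by DESeq2, and 28 to 1266 with a library left out. Genes called lower numbered 21, 16, 20, 18 and 11 after median-ratio scaling, without the trend, by edgeR, by edgeR on pairs and by DESeq2, and 3 to 59 with a library left out. When rows were not filtered by level, limma called 0 higher and 0 lower, while 1374 and 110 genes had an unadjusted p under 0.05; the cause was not tested. Of the other pathway genes 0 were called higher after quantile normalization, with no filter and by DESeq2, at 5, 8 and 1 with an unadjusted p under 0.05, and 0 to 9 with a library left out. Duct markers called higher numbered 3, 0 and 2 in the same settings and 1 to 10 with a library left out, and those called lower 0 to 1. Of 9 called genes named with a p or fold change, Onecut2 lost its call in 1 of 14 alternatives and Fxyd3 in 9. No paired analysis was possible because the groups share no replicate number. Depth limits Cftr most, with 1 read pair in the controls.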
